A study of Mus musculus with 24 samples.

Results

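The comparison set 7 days of differentiation against days 2 and 4 in mouse embryonic stem (ES) cells, on 6 of the 24 arrays of the series. Arrays I and J came from day 7, arrays E and F from day 2 and arrays G and H from day 4, the letters being those of the data sets in the sample labels. Each array carried cDNA of female ES cells, labelled with Cy5, and cDNA of male ES cells of the same day, labelled with Cy3, so all 6 had the same dye orientation. To start differentiation, cells of both sexes were moved to dishes to which they do not attach, and leukaemia inhibitory factor, the cytokine that keeps mouse ES cells undifferentiated, was withdrawn. The study used the female line PGK12.1, a hybrid of 129 and PGK, and the male line CCE/R, of 129/sv background; the labels name these lines beside another female line, 3F1, and do not tie a line to each array. Every group of ES cells was therefore a pair of cultured lines, and a difference of sex, of line and of strain cannot be told apart in any value of the ES cell arrays. The study describes the arrays of a day as biological replicates, and the labels do not say whether they came from separate cultures, so the p-values measure the spread between these arrays.

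Female ES cells have both X chromosomes active, and differentiation sets off the silencing of one of them, a process started by the noncoding RNA Xist. Differentiating ES cells leave the pluripotent state and form aggregates in which cells of several embryonic lineages appear. A ratio of female to male cells can thus change with X-linked dosage, with the pace of differentiation in each line, or with the mixture of cells formed. In these bulk samples a larger number of cells of a type and more RNA per cell cannot be told apart, and neither can a gain in female cells and a loss in male cells, since a single ratio is deposited per clone.

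The array carries cDNA clones from a mouse embryonic library, and each value is the log2 ratio of female to male signal of a clone on an array, called the M value. An M value of 1 is a 2-fold higher signal in female cells. That the direction is female over male is likely from the way the study defines the M value, and no value here settles it; were it the reverse, every rise would read as a fall. Before any comparison, each array was centred by taking away its own median M value. The table lists 15247 clones by name alone. None of these names was found in the mouse RefSeq gene table used here (0 matches), so the changes are described by clone and not by gene or chromosome.

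Of the 15247 clones, 8395 had a value on both day 7 arrays, and 6372 of these (41.8% of all clones) also had a value on at least 3 of the 4 earlier arrays and were tested. All 4 earlier values were present for 5323 clones and 3 for 1049. The median change was -0.01 in both of these classes, and the share called in the test described next was 6.71% with 4 values and 5.91% with 3. Just outside the limit, 1416 clones had both day 7 values and 2 earlier ones, with a median change of -0.13. The arrays held values for 5960 to 11189 clones, fewest on array H and most on array I. Over all clones, the correlation between the day 7 arrays was 0.581, the 6 pairs among the earlier arrays had correlations of 0.364 to 0.681, and the 8 pairs of a day 7 with an earlier array had 0.074 to 0.426. All of these pairs thus ran the same way over all clones, but over the clones tested the correlation of G with I was only 0.019. Clones on an array are not independent of each other, and no p is given.

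Between days 2 and 4 and day 7, the female:male ratio rose for 314 clones (4.93% of those tested) and fell for 105 (1.65%), 419 (6.58%) in all, at an adjusted p under 0.05 from limma. Rises made up 74.9% of the calls. The clones that rose did so by a median of 1.45 on the log2 scale (2.73-fold), from 0.92 for the smallest to 3.72 for the largest, and 62 of them rose by 2 or more. The clones that fell did so by a median of 2.55-fold, with log2 changes of -0.95 to -2.95, and 9 fell by 2 or more on the log2 scale. Over all clones tested the median change was -0.01 and the median size of change 0.363, with a median standard error of 0.287. At an unadjusted p under 0.05 from limma, 847 clones were higher and 652 lower. Several of the fits given next also called clones outside the 419, so a similar count is not the same list. The count of 419 rested on several arrays: it was 262 without array F, 177 without array G, 174 without array I and 148 without array J. Where the labels speak of abnormal spots removed by hand (arrays F and G against I) 484 clones were called, and among the others (E and H against J) limma called 0 of 5325, with 1155 at an unadjusted p under 0.05; with this division as a block 465 were called. Called with all 6 arrays and again with each array left out in turn were 56 of the rising and 2 of the falling clones.

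**Figure D1:**
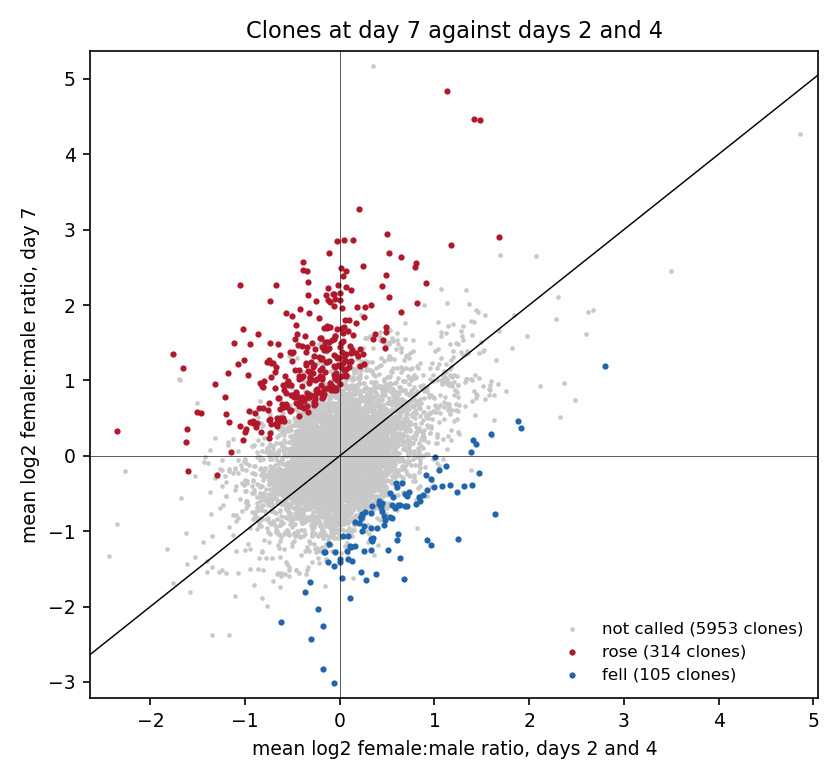
Mean log2 female:male ratio of each of the 6372 clones tested, with the mean of the arrays of days 2 and 4 on the x axis and the mean of the 2 day 7 arrays on the y axis; the diagonal marks no change. The 314 clones that rose lie above the diagonal, most of them left of 0 at days 2 and 4 and above 0 at day 7, and the 105 that fell lie below it.

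Most of the clones called crossed 0, which is the median of each array and need not be equal signal in both lines. Of the 314 that rose, 241 had a mean ratio below 0 at days 2 and 4 and above 0 at day 7, 71 were above 0 already and went further up, and 2 stayed below 0. At days 2 and 4, 207 of the rising clones were within 0.5 of 0, 94 were lower and 13 were higher than that, and at day 7 the mean M value exceeded 1 for 200 of them and 2 for 46. Of the 105 that fell, 83 went from above 0 to below 0, 15 were below 0 already and 7 stayed above 0. Within 0.5 of 0 at days 2 and 4 were 55 of the falling clones. At days 2 and 4 the median ratio was 0.45 for the falling clones and -0.27 for the rising ones. At day 7 the medians were -0.82 for the falling clones and 1.18 for the rising clones. These levels come from the values that made the calls and are a description only. The share of all clones tested that crossed 0 was not worked out.

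The test favours clones whose values are alike within a group, so the likeness of the arrays for the called clones is a description. The median of the rising clones was 1.16 on array I and 1.15 on array J, against -0.17 on E, -0.26 on F, -0.35 on G and -0.22 on H. The falling clones had medians of -0.88 on array I and -0.82 on array J, and of 0.31, 0.41, 0.60 and 0.52 on E, F, G and H. For a rising clone the gap between the day 7 arrays was 0.452 at the median, close to the 0.44 over all clones tested. The range over the earlier arrays was 0.532, against 0.585 over all clones tested. For a falling clone the gap was smaller, at 0.352, and the range over the earlier arrays was wider, at 0.643. Taken within the arrays with removal of spots by hand in the labels, the median change of the rising clones was 1.49, and within the others it was 1.42. The falling clones had a median change of -1.55 in the first set of arrays and -1.20 in the second.

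Of the 5323 clones with all 6 values, 979 (18.4%) had both day 7 values above all 4 earlier ones, and 803 (15.1%) had both below. Among them, all 266 rising and all 91 falling clones with 6 values had no overlap between the groups; the test chose them for this, and the count is a description. A gap between the groups was thus common and most gaps were too small to pass the test. The 20 clones with the smallest p were 19 rising and 1 falling, with adjusted p up to 0.00172 from limma. For the 19 rising ones no day 7 value was under 0.928 and no earlier value was over 0.599.

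The clones with the largest changes, among those with 6 values and no overlap between the groups, show both courses. Clone H3057d02 had M values of -0.52 and -0.74 at day 2 (arrays E and F), -1.88 and -1.07 at day 4 (G and H), and 2.89 and 1.64 at day 7 (I and J). It was below 0 on every earlier array and well above 0 on both day 7 arrays. Its mean was -1.05 ± 0.597 (SD, n = 4 arrays) at days 2 and 4 and 2.27 ± 0.882 (SD, n = 2) at day 7, a rise of 3.32 (standard error 0.429, limma adjusted p = 0.00282). Clone H3113a06 had M values of -1.38 and -1.29 at day 2, -2.38 and -1.98 at day 4, and 1.17 and 1.54 at day 7. Its day 4 values were the lowest of the 6 arrays, so the rise of 3.11 (standard error 0.337, limma adjusted p = 0.00119) started from a ratio well below 0.

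Clone H3089e04 fell from 1.08 and 1.47 at day 2 and 2.57 and 1.45 at day 4 to -0.71 and -0.83 at day 7. The day 7 arrays lay close together, and the change was -2.41 (standard error 0.377, limma adjusted p = 0.0074). Without array I the change was -2.48 with an adjusted p of 0.0555, and without array J it was -2.35 with 0.0639. Clone H3097e09 fell from 0.64 and 1.21 at day 2 and 2.16 and 1.01 at day 4 to -0.34 and -1.87 at day 7. Here the day 7 arrays lay further apart than the median change of the falling clones, and the change of -2.36 (standard error 0.475, limma adjusted p = 0.0189) was -1.60 without array J, with an adjusted p of 0.136. All 4 named clones kept their direction with each array left out; with array weights the adjusted p of H3097e09 was 0.0634 and the others passed the test. None of them passed the test in arrays E, H and J alone, where the changes were 2.44 for H3057d02, 3.22 for H3113a06, -2.10 for H3089e04 and -2.69 for H3097e09 with adjusted p from limma of 0.0714 to 0.0926. All 4 passed in arrays F, G and I alone, with adjusted p of 0.00654 to 0.0333.

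**Figure D2:**
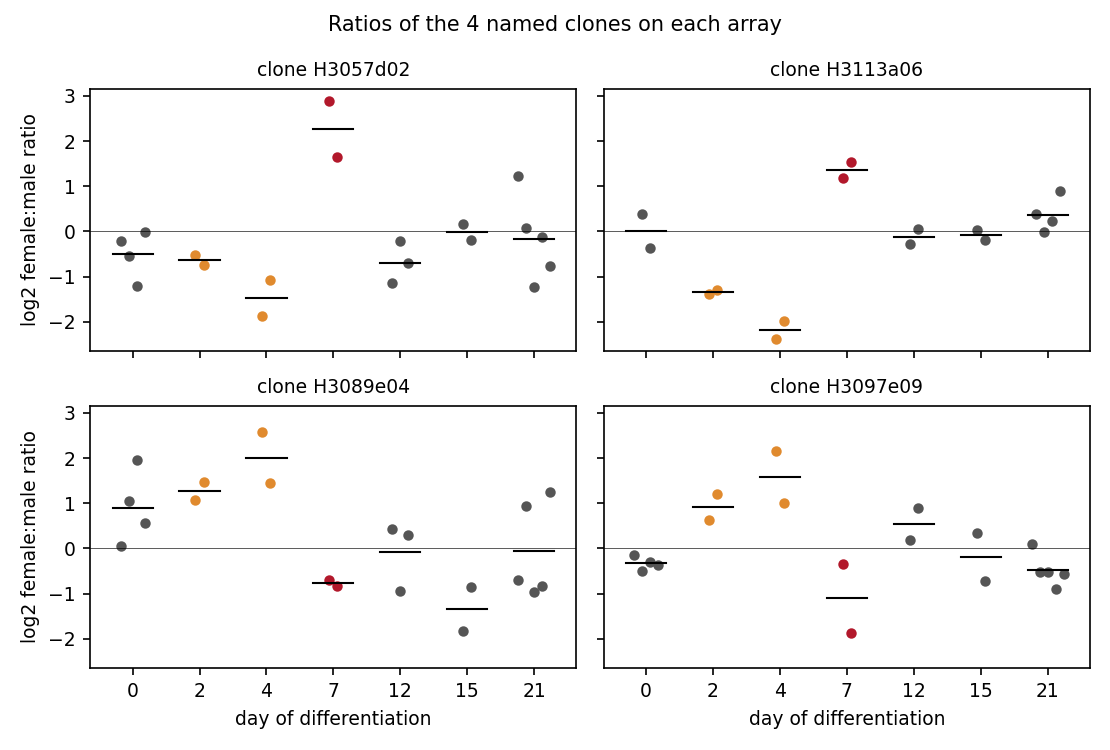
M value (log2 female:male ratio) of the 4 named clones on every ES cell array with a value, by day of differentiation; points are arrays, horizontal lines are means of a day, days 2 and 4 are orange and day 7 is red. The upper 2 clones are above 0 on both day 7 arrays and below 0 on all arrays of days 2 and 4, and the lower 2 show the reverse.

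Against each earlier day on its own, more clones were called from day 4 than from day 2; the difference between these counts was not tested. With a mean for each day over the same 6 arrays and 6372 clones, 90 clones (1.41%) were higher and 8 (0.126%) lower at day 7 than at day 2, and 214 (3.36%) were higher and 110 (1.73%) lower than at day 4 (limma, adjusted p under 0.05). Higher in both were 84 clones and lower in both were 5; the comparisons share the day 7 arrays. Days 2 and 4 themselves differed for 0 clones, with 364 at an unadjusted p under 0.05 from limma. For the falling clones the median difference of day 4 minus day 2 was 0.21, and for the rising clones it was -0.06. The 98 calls against day 2 became 202 without array E, 33 without array I and 0 without array J, where 1376 had an unadjusted p under 0.05. Where an array left out leaves its day with a lone array, that array takes its own mean and adds nothing to the spread, so leaving out either array of the day not compared gives the fit to the other 4 arrays: 114 calls against day 2 without G or H, and 540 against day 4 without E or F. Without array G the order of the counts turned, with 114 calls against day 2 and 86 against day 4, the latter over the 5709 clones with a value on array H. The 324 calls against day 4 became 198 without array H, 62 without I and 112 without J.

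The ratios of all clones were spread more widely at day 7. Over the 5323 clones with 6 values, the median absolute deviation (MAD) of an array's M values, on the scale of an SD, was 0.465 ± 0.0411 (SD, n = 4 arrays) at days 2 and 4 and 0.609 ± 0.102 (SD, n = 2) at day 7. Array I, at 0.537, and array J, at 0.681, were both above the 4 earlier arrays, at 0.422 to 0.520. The two-sided exact permutation p for this difference was 0.0667, the smallest that the 15 ways to divide the arrays allow, so it cannot pass 0.05. The difference of 0.144 was 0.0724 without array J and 0.216 without array I. A wide spread was not particular to day 7. Over these clones, where measured, the MAD was 0.59 to 0.79 at day 21 and 0.61 and 0.41 on arrays N and O of day 15. It was 0.42 to 0.51 at day 0 and 0.43 to 0.48 at day 12. Clones with an M value above 1 made up 6.84% of those measured on array I and 8.88% on array J, against 3.71% to 4.20% on the earlier arrays. Clones below -1 made up 4.02% and 7.05%, against 2.00% to 3.89%. The wider spread moved with the calls: once every array was given the same spread, 239 clones were called, 181 of them rises, and its part in the result was not tested beyond this.

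Where the called clones stood on the other 14 ES cell arrays, which took no part in the calls, was then followed. Array A of day 0, both arrays of day 15 (N and O) and array P of day 21 carried the female sample in Cy3, and the others in Cy5. The rising clones were near or below 0 before differentiation, with medians of -0.07, -0.21, -0.40 and -0.17 on the day 0 arrays A, B, C and D. They were again near 0 at day 12, at -0.22, 0.13 and -0.03 on arrays K, L and M, and at day 15, at -0.07 and 0.01 on N and O. At day 21 the 5 medians lay between -0.19 (array R) and 0.46 (array P). None of these 14 medians was above 0.46, against 1.16 and 1.15 at day 7. Over all clones tested, the median of these 14 arrays lay between -0.16 and 0.05.

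The falling clones were followed on the same arrays. Their medians on the day 0 arrays were -0.18, 0.06, 0.37 and -0.07, and at day 12 they were 0.32, -0.32 and -0.02. At days 15 and 21 all 7 medians were below 0, from -0.65 on array P to -0.19 on arrays O and R. On the day 21 arrays all clones tested also had medians below 0, from -0.16 on array T to -0.07 on array P. On array R the median of the rising clones was -0.19 as well. Taking the mean of each day, the day 7 ratio was lower than that of day 0 for 101 of 105 falling clones, than that of day 12 for 97 of 105, than that of day 15 for 68 of 96 and than that of day 21 for 80 of 105. For the rising clones the day 7 ratio was higher than that of day 0 for 310 of 314, of day 12 for 310 of 314, of day 15 for 285 of 298 and of day 21 for 289 of 314. The day 7 side of these counts comes from the values that made the calls, which favours high counts. The same shares over all clones tested were not worked out, so the counts are a description only.

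**Figure D3:**
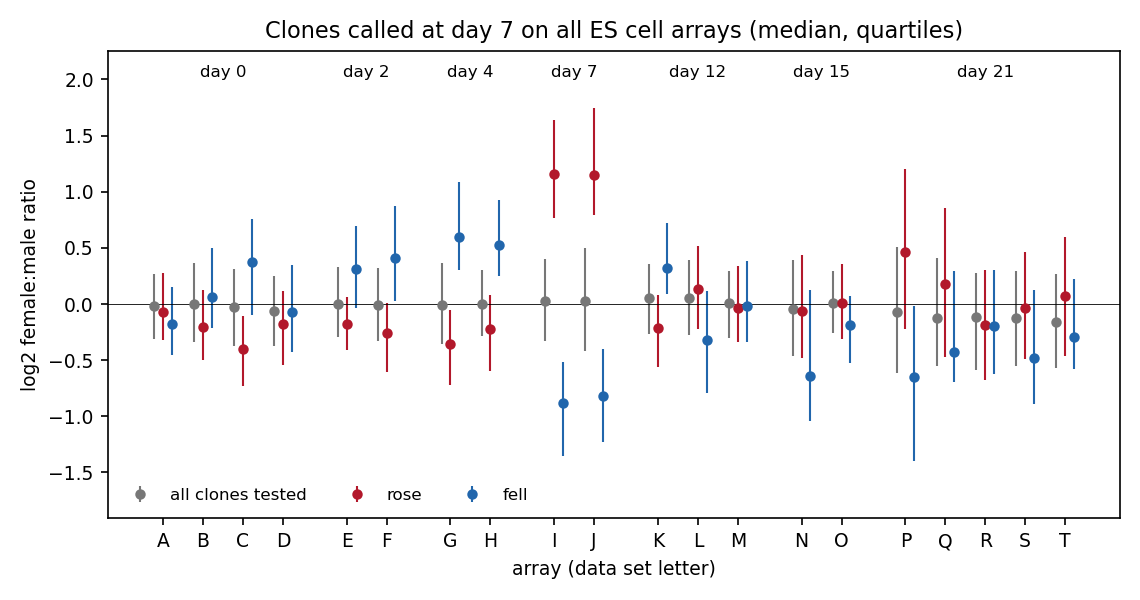
Median M value (points) and quartiles (bars) of the 314 rising, 105 falling and all 6372 tested clones on each of the 20 ES cell arrays, in order of day of differentiation. The rising clones are above 1 at the median on both day 7 arrays and between -0.40 and 0.46 on the other arrays. The falling clones are below -0.8 at day 7 and below 0 on all arrays of days 15 and 21. On the day 21 arrays the median of all clones tested is below 0 too.

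A mean M value beyond 1 was uncommon at days 0 and 12, among the called clones as among all. Of the 200 rising clones with a mean M value above 1 at day 7, 188 had no such mean at day 0 or at day 12. Of the 43 falling clones with a mean below -1 at day 7, 41 had none at day 0 or day 12. Over all clones tested, 96.2% had no mean above 1 on either day and 96.8% had none below -1. A mean M value above 1 was reached by 7 of 314 rising clones at day 0, 7 of 314 at day 12, 13 of 298 at day 15 and 37 of 314 at day 21. Over all clones tested, 2.06%, 1.95%, 3.41% and 4.77% of those with a value had such a mean on these days. A mean below -1 was reached by 1 of 105 falling clones at day 0 and 1 of 105 at day 12. At day 15 it was reached by 10 of 96 and at day 21 by 13 of 105. The shares below -1 over all clones tested were 1.81%, 1.51%, 3.19% and 5.43% on these days. The rising clones were chosen for low values at days 2 and 4 relative to day 7, and the falling clones for high ones. These counts are a description. Of clone H3057d02, the M values ran from -1.21 to -0.02 on the 4 day 0 arrays and from -1.14 to -0.22 on the 3 arrays of day 12. At day 21 its values ran from -1.24 to 1.23 with a median of -0.13, so no other array came up to its lower day 7 value of 1.64. Clone H3113a06 was at -0.36 and 0.38 on the 2 day 0 arrays with a value, and at -0.28 and 0.05 on 2 arrays of day 12. It had 0.03 and -0.20 at day 15, and from -0.01 to 0.89 on 4 arrays of day 21, so no other array came up to its lower day 7 value of 1.17.

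The falling clones that are named had different courses. Clone H3089e04 was above 0 on all 4 day 0 arrays, from 0.05 to 1.96. At day 12 it was at 0.43, -0.94 and 0.30 on arrays K, L and M. It was below 0 on both arrays of day 15, at -0.86 and -1.84. At day 21 it lay below 0 on 3 arrays and above 0 on the other 2, from -0.95 to 1.24. Clone H3097e09 was below 0 on all 4 day 0 arrays, from -0.50 to -0.14, and had 0.19 and 0.89 at day 12. Its ratio was thus above 0 at days 2 and 4 and below 0 both at day 0 and at day 7.

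Later changes were tested on those 14 arrays with a mean for each day. From day 0 to day 12, 27 clones (0.433%) were higher and 21 (0.337%) lower of 6236 tested (limma, adjusted p under 0.05). Of 312 rising clones tested, 1 was higher and 2 were lower, and of 103 falling clones, 1 was higher and 0 lower. The count of 48 fell to between 2 and 17 without any one of arrays A, B, C, D, K, L and M, so little can be read from it; 1002 clones had an unadjusted p under 0.05. From day 0 to day 15, 63 clones (1.18%) were higher and 39 (0.728%) lower of 5355; of 273 rising clones 2 were higher and 3 lower, and of 85 falling clones 1 was higher and 2 lower. The count of 102 was 43, 32, 58 and 5 without arrays B, C, D and N. Both day 15 arrays carried the female sample in Cy3, and among the day 0 arrays only array A did. A difference of day and a difference of dye thus cannot be fully told apart in this comparison. A fit to arrays of the same dye orientation was not made for day 15.

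At day 21 the called clones had a larger share of calls in the direction of their day 7 change than all clones tested, a difference that was not tested. Over all clones, 318 (5.07%) were higher and 526 (8.39%) lower at day 21 than at day 0, of 6271 tested (limma, adjusted p under 0.05). Of the 312 rising clones tested, 46 (14.7%) were higher and 6 (1.92%) lower, with a median change of 0.32 against -0.11 over all clones tested. Without array A, B or C the share of rising clones called higher was 9.94%, 9.62% and 6.41%, against 3.22%, 3.06% and 2.30% over all clones. With the label description as a term in the model it was 13.0%, against 3.14% over all clones, and the share of falling clones called lower was 5.77%, against 3.84%. Of the 104 falling clones tested, 15 (14.4%) were lower and 3 (2.88%) higher at day 21, with a median change of -0.39; the share called lower was 7.69%, 5.77%, 3.85% and 6.73% without arrays A, B, C and S, against 4.51%, 3.86%, 3.35% and 5.82% over all clones. Arrays of days 0 and 12 and of days 12 and 21 can oppose each other (correlations down to -0.422 and -0.522 over all clones), also with the same dyes. Over the clones tested here the correlations of these pairs of arrays were -0.142 (C with L) and -0.286 (K with Q). The labels give the dyes of each array, and the direction was kept.

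The clones called came from many source plates of the library. The 314 rising clones came from 126 of the 159 source plates that hold tested clones, with at most 7 from 1 plate, and the 105 falling clones from 73 plates, with at most 5 from 1. A clone's name gives its plate and well, so neighbouring wells could be compared, without a test. Of 151 rising clones whose next well in the row was also tested, 14 (9.27%) had a rising clone there, against 5.04% over all next wells tested. For falling clones these were 2 of 49 (4.08%), against 1.29%. Over 3094 pairs of neighbouring wells the correlation of the changes was 0.091, which is across clones. Wells that hold the same transcript and wells that share a position in printing cannot be told apart without the identity of the clones. With the mean of each source plate removed on each array, 394 clones were called, 353 of them among the 419.

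The longest run of neighbouring wells held 3 rising clones with nearly the same values. They lay between -0.54 and -0.13 on the 4 earlier arrays and between 2.22 and 2.72 on the day 7 arrays. On the other 14 ES cell arrays their 42 values lay between -0.78 and -0.02. These clones had a high ratio on both day 7 arrays and on no other array of ES cells. The run was chosen after its values were seen.

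**Figure D4:**
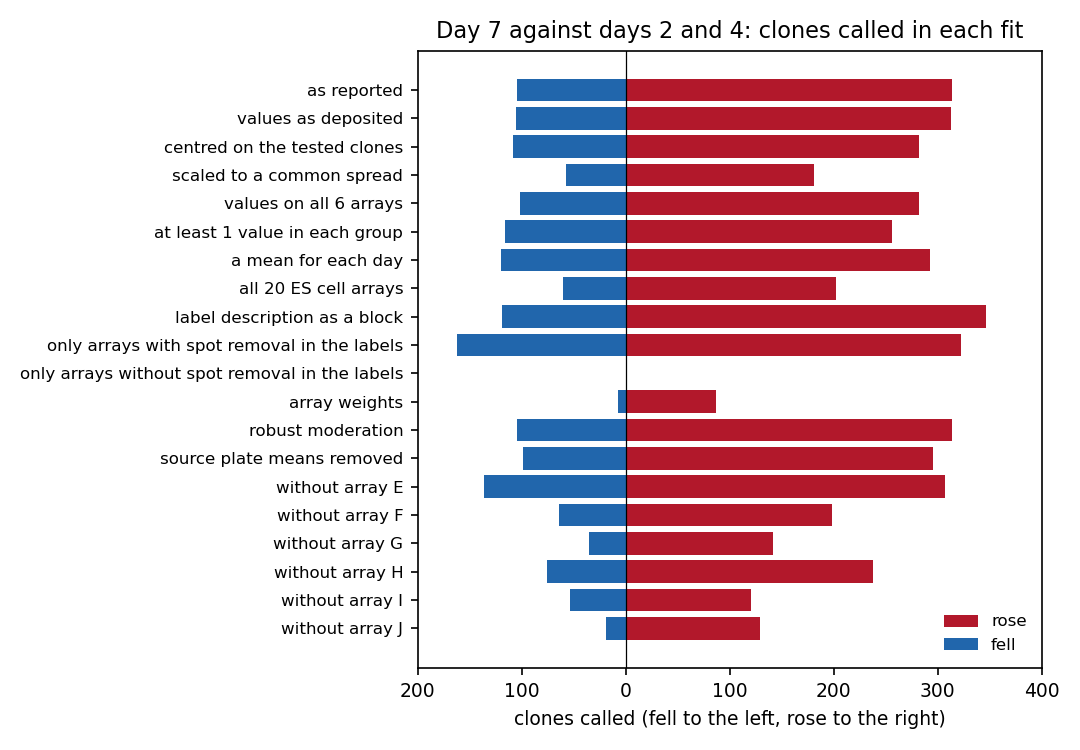
Number of clones called in day 7 against days 2 and 4 at an adjusted p under 0.05, in the reported fit and in each alternative, with falls to the left and rises to the right of 0. Rises outnumber falls in every fit that made calls; the fits range from 0 calls (arrays E, H and J alone) to 484 (arrays F, G and I alone), with 419 as reported.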

How the data were processed

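The authors deposited log2 ratios of female to male signal, 1 value per clone and array. Per the paper's methods and the labels, slides were scanned with both channels balanced, read with GenePix 6.0, cleared of abnormal spots by hand and normalised with Gepas. How Gepas normalised the ratios, and how background, duplicate spots and missing values were handled, is not given in the sources used here. Spot intensities were not used, so signal over background is unknown and the number of arrays limits the precision.

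Each array was centred on its median. Groups came from the source names in the labels. Day 7 was tested against days 2 and 4 with limma 3.58.1 (R 4.3.3; lmFit, moderated statistics, Benjamini-Hochberg adjustment over the 6372 clones), and days 12, 15 and 21 against day 0 over clones with at least 2 values on each day compared. The procedure was checked on simulated data. The clones named are the 2 that rose and the 2 that fell the most among called clones with 6 values and no overlap between groups. Lists of marker genes could not be used without gene names. The members, lists and rules were chosen with earlier results of these data known. Alternatives covered centring, scaling, filters, models, label description, weights, source plates and each array left out. The label term at days 12 to 21 and the dyes at days 12 and 21 were added after the data were seen.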

Additional observations from a re-analysis of the deposited data

How the results depend on the processing

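Of the 419 clones, 357 were among the 384 called with values on all 6 arrays, of 5323 tested. With at least 1 value in each group, 298 were among the 372 called, of 9116 tested. With the label block, 397 were among the 465 called. The count of 419 was within 1.5 times as deposited, centred on the tested clones, with either other filter and with a mean for each day. It was also within 1.5 times with the label block, with robust moderation and with plate means removed. It was 239 with a common spread, 262 with all 20 ES cell arrays, 95 with array weights (87 rises and 8 falls) and 0 in arrays E, H and J alone, and lay between 148 and 443 with an array left out; where 1 day 7 array was left, it was assumed to vary like the others. The count against day 2 lay between 0 and 202 with an array left out. That against day 4 was 540 with the 4 arrays of the 2 days alone and lay between 62 and 540. At day 12 against day 0 the count of 48 was 379 with a common spread, 760 with array weights, 28 with the label term and 2 to 17 with an array left out. At day 15 it was 328, 240 and 5 to 92 with a common spread, array weights and an array left out. At day 21 it was 1298 with array weights, 434 with the label term and 354 to 1079 with an array left out. Centring on the tested clones turned the split at day 12 from 27 higher and 21 lower to 20 and 29, and at day 21 from 318 and 526 to 366 and 339. The cause of these shifts was not tested. The difference in spread of 0.144 kept its direction in each alternative, at 0.0724 to 0.216 with an array left out. The labels carry no replicate numbers by which arrays could be paired; the block by label description, with 1 array of each day in each set, gave 465 clones.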

Other observations

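The clones called at day 7 were also measured in cells taken from Balb/c mice and embryos, where female and male share the strain: thymic lymphocytes at 4 weeks of age and inner cell masses of early blastocysts. In thymic lymphocytes the rising clones had medians of 0.06 and 0.03 on arrays U and V, and the falling clones -0.03 and -0.05. In inner cell masses the rising clones had medians of -0.22 and -0.12 on arrays X and Y and the falling clones -0.15 and 0.08, with -0.12 and -0.06 over all clones tested. The study amplified the RNA of single inner cell masses, a step it does not give for ES cells. Clone H3057d02, at 2.89 and 1.64 at day 7, was at -4.33 and -3.22 in the inner cell masses and at 0.22 and 0.09 in lymphocytes. On arrays X and Y the 1st percentile of the clones tested was -4.81 and -4.23. Clone H3089e04, at -0.71 and -0.83 at day 7, was at 1.53 and 1.72 in the inner cell masses. Clone H3113a06 was at -0.51 and -0.04 there. Clone H3097e09 was at 1.02 on array X and -0.40 on array Y. The ratios were spread differently on these arrays, with a MAD of 1.40 and 1.07 for inner cell masses and 0.199 and 0.225 for lymphocytes, against 0.537 and 0.681 at day 7, so equal M values are not equally far out. These values rest on 2 arrays of each cell type and were not tested; the study describes the male side of the inner cell mass arrays as technical replicates, so the arrays X and Y are not fully independent. By Dixon's test at the 95% level, no array stood apart in 23 sets of values (number of clones, spread, medians of the called clones and the 4 named clones, at days 2 and 4, day 0 and day 21). Clone H3113a06 had only 2 values at day 0 and was left out there. Each set held 4 or 5 values, so only a wide gap could be flagged. The 2 day 7 arrays were too few for the test.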
